A study of Mus musculus with 32 samples.

Results

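The 10 immediate early genes Fos, Fosb, Jun, Junb, Jund, Egr1, Atf3, Ier2, Ier3 and Myc were followed in the cardiac ventricle of mice. Every probe set whose single annotated symbol was 1 of these names was taken, which gave 16 of the 24965 probe sets on 2 types of Affymetrix expression array. The 10 genes are among 13674 genes with a single-symbol probe set on these arrays. The first array type carried 15 of the 16 probe sets and the second carried 1, for Jund. On each array type total RNA was measured from 5 wild type samples, 8 samples of transgenic mice with cardiac hypertrophy and 3 samples of transgenic mice in cardiac failure. Both transgenic groups carry a cardiac specific AT1 transgene. The labels do not spell out AT1, name no promoter or line, and give neither age, sex nor strain. Nor do they say whether each sample is an animal of its own, and p-values therefore reflect only the spread between the samples, which could be technical. Hypertrophy and failure arrays thus differ from wild type in both the transgene and the state of the heart, which cannot be told apart. They differ from each other in the state of the heart.

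Immediate early genes are switched on within minutes of a stimulus, from transcription factors already present in the cell, and their RNA is usually short-lived. Fos, Fosb, Jun, Junb and Jund encode leucine zipper proteins that pair as the AP-1 factor, and Atf3 belongs to the related ATF/CREB family. Egr1 is a zinc finger transcription factor, Myc a helix-loop-helix factor of cell growth, and Ier2 and Ier3 are early response proteins. In heart muscle, stretch, pressure load and hormones such as angiotensin II are known to induce several of these genes, chiefly in the first hours after the stimulus.

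The promoters of Fos, Fosb and Ier3 are shown, because Fos and Fosb carry copies of the core letters of a cyclic AMP response element, through which CREB and ATF factors act on such genes, and because Ier3 is the gene whose failure arrays stood apart. Each is the 250 bases before the annotated start, read 5′ to 3′ on the gene's strand from RefSeq, build GRCm38.p6. Capitals mark TGACG, the core of the cyclic AMP response element, and TATAAA, the TATA box, on either strand. Fos lies on the plus strand at chr12:85473640-85473889, Fosb on the minus strand at chr7:19310046-19310295 and Ier3 on the plus strand at chr17:35821463-35821712.
Fos: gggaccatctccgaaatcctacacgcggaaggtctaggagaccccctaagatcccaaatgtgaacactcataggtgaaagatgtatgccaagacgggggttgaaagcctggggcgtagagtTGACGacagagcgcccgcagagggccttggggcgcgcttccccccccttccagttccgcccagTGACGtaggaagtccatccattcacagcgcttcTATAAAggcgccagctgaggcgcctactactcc
Fosb: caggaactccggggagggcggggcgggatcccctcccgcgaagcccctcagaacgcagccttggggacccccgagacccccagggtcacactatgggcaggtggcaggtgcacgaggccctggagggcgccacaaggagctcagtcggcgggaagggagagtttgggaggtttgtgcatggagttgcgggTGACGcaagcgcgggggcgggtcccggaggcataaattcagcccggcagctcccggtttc
Ier3: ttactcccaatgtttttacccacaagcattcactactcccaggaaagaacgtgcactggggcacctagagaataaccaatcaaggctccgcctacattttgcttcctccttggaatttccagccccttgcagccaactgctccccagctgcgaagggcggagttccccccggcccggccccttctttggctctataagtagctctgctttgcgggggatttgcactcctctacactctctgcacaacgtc
In Fos, TGACG stood 129 to 125 and 66 to 62 bases before the start and TATAAA 33 to 28 bases before it. In Fosb, TGACG stood 60 to 56 bases before the start. Of the 10 genes, 7 matched a promoter in the RefSeq table, and Egr1, Ier2 and Myc did not. Searched on both strands, TGACG was in 4 of these 7 windows (Fos, Fosb, Junb and Atf3), against 17.8% of all 32851 windows of the same length. GGGCGG, a GC box, was in 5 of 7 against 32.7%, and TATAAA in 1 of 7 against 12.4%. TGANTCA, the AP-1 motif, was in 0 of 7 against 6.75%, and the CArG box, the serum response motif, was in 0 of 7 against 1.47%. Hits of different motifs did not overlap in the 7 windows. These are matches of letters only, within 250 bases before the start. Motifs farther upstream were not searched, nor were the promoters of Egr1, Ier2 and Myc.

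Every probe set has 1 deposited intensity per array, on a linear scale, and its level also depends on the probe set, so levels are compared between arrays and not between genes. Only probe sets at or above the median of the array in 3 or more of the 16 arrays were tested. These medians ran from 91.8 to 121 on the first type. Values under the 20th percentile of the array type (39.5 on the first) were raised to it before log2, since they are too dim to be ordered. By this rule 10 of the 16 probe sets were tested, and they cover 7 of the 10 genes. Fos, Ier2 and Myc had no tested probe set. Ier3 was kept by 4 arrays, the 3 failure arrays and 1 wild type array, so that its failure arrays decided that it was tested. Jun was kept by 3 arrays, 2 wild type and 1 hypertrophy, and Atf3 probe set 104156_r_at by 3 arrays, none of them failure. Hypertrophy replicates 6 and 7 stood apart in RNA quality: the 5′ Gapdh control probe set reached 0.468 and 0.0487 of the 3′ one on the first array type, against 0.806 to 1.11 on the other 14 arrays. The same ratio of Actb was 1.10, 0.765 and 1.02 in failure, above the wild type range of 0.545 to 0.752, and 0.357 to 0.992 in hypertrophy; its part in the failure values was not tested. Xist RNA, which coats the inactive X chromosome of female cells, was brighter than Eif2s3y, a Y chromosome gene, on 2 of 3 failure, 2 of 5 wild type and 4 of 8 hypertrophy arrays. The ventricular cardiomyocyte markers (9 genes measured, among them Myl2, Myh6 and Tnnt2) had a summed intensity of 47151 to 53793 in wild type, 44191 to 55007 in hypertrophy and 49140 to 50472 in failure, so the markers of the labelled tissue were present in every group. Such a sum follows its brightest genes, and changes of single markers are counted further below.

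None of the immediate early genes passed the test in hypertrophy or in failure. Of the tested genes, Ier3 and Egr1 stood highest in failure, Ier3 on all 3 failure arrays and Egr1 on 2 of them. Egr1 and the tested Jun and Fos family genes overlapped between groups, and Ier3 did not overlap in failure. The dim, untested probe sets Fos 160901_at, Ier2 99109_at and Atf3 104155_f_at were also brightest on failure replicates 1 and 2. Counted together, 0 of the 9 member probe sets tested on the first array type were called in any of the 3 comparisons at a limma adjusted p of 0.05. The background was as low. Of 6980 probe sets, 0% were called for hypertrophy against wild type, 0.143% for failure against wild type, and 0% when failure was set against hypertrophy. On the second type the 1 Jund probe set was not called either, where 0.171%, 0.357% and 0.0286% of 7004 probe sets were. At an unadjusted p of 0.05 the members gave 1 of 9 (Jun, lower) in hypertrophy against wild type, where 4.47% of all probe sets passed in either direction and 2.22% were lower. For failure against wild type the count was 2 of 9 (Ier3 and Egr1, higher), where 10.7% passed and 7.15% were higher. Failure against hypertrophy gave 1 of 9 (Ier3, higher), where 10.1% passed and 7.28% were higher. For Jund on the second type the unadjusted p was 0.219, 0.845 and 0.215 in the same order of comparisons, and 9.77%, 12.2% and 8.67% of that type's probe sets passed. Ier3 was the 1 of 9 whose failure arrays did not overlap wild type, where 13.3% of all probe sets did not overlap in either direction and 8.58% were higher. Against hypertrophy Ier3 was again the 1 of 9, where 2.54% did not overlap and 1.75% were higher. Since its failure arrays decided that Ier3 was tested, the failure counts that rest on Ier3 are not independent of the filter.

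The tested Jun family probe sets of AP-1 were above the floor on every array, except Junb 102363_r_at in hypertrophy replicate 7. In each probe set the 3 groups overlapped. Jun, the founding member, had intensities of 105, 101, 111, 111 and 117 in the wild type arrays, and of 81.3 to 113 in hypertrophy with a median of 96.1. The failure arrays lay at 106, 104 and 102. In hypertrophy 7 of 8 arrays were below the lowest wild type array and the other was among the wild type values, so the groups overlapped. The log2 change of Jun in hypertrophy relative to wild type was -0.22 ± 0.09 (SE; n = 8 and 5), with an unadjusted p of 0.0239 and a limma adjusted p of 0.960. For failure against wild type the change of Jun was within its standard error. Failure against hypertrophy gave a log2 change of 0.15 ± 0.10 (limma adjusted p = 0.686).

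Jund, a Jun protein that is made steadily in many tissues, has a probe set on each array type. On the first (102364_at) it had an intensity of 1653 ± 264 (SD, n = 5) in wild type. Hypertrophy gave 1608 ± 405 (SD, n = 8) and failure 1810 ± 201 (SD, n = 3). The hypertrophy arrays ran from 971 to 2121, wider than either other group and enclosing both. On the second (106973_at) the values were 144 ± 11.6 (SD, n = 5) in wild type, against 143 ± 32.2 (SD, n = 3) for failure and 159 ± 19.2 (SD, n = 8) for hypertrophy, and these ranges overlapped too. Between failure and hypertrophy the probe sets gave log2 changes of opposite sign, 0.21 ± 0.20 with 102364_at and -0.17 ± 0.14 with 106973_at, with limma adjusted p of 0.789 and 0.757. Without failure replicate 1 the second of these changed sign, to 0.0088.

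Junb, a Jun protein that can oppose Jun in AP-1 dimers, was read by a pair of probe sets on the first array type that did not give the same picture. Probe set 102362_i_at had 204 ± 48.7 (SD, n = 5) in wild type, against 183 ± 46.1 (SD, n = 8) for hypertrophy and 203 ± 44.8 (SD, n = 3) for failure. Probe set 102363_r_at had 123 ± 13.7 (SD, n = 5), 94.7 ± 43.4 (SD, n = 8) and 122 ± 26.9 (SD, n = 3). Its lowest values were 45.4 and 28.6, in hypertrophy replicates 6 and 7, while 102362_i_at read 159 and 164 there, inside the range of the other arrays. The ratio of 102363_r_at to 102362_i_at was 0.285 and 0.175 in these hypertrophy arrays and 0.449 to 0.921 in the other 14. They are the same arrays whose Gapdh ratio was low. The part of RNA quality in the Junb values was not tested. With 102363_r_at the log2 change of Junb was -0.49 ± 0.28 (SE) in hypertrophy relative to wild type (limma adjusted p = 0.960) and 0.47 ± 0.34 in failure relative to hypertrophy (0.687). Without hypertrophy replicates 6 and 7 these changes were -0.14 and 0.12, with limma adjusted p of 0.949 and 0.887. With 102362_i_at both changes were within their standard errors on all arrays. Over the 16 arrays the probe sets correlated at r = 0.470 in log2 intensity, and at 0.581 without these 2 arrays.

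**Figure D1:**
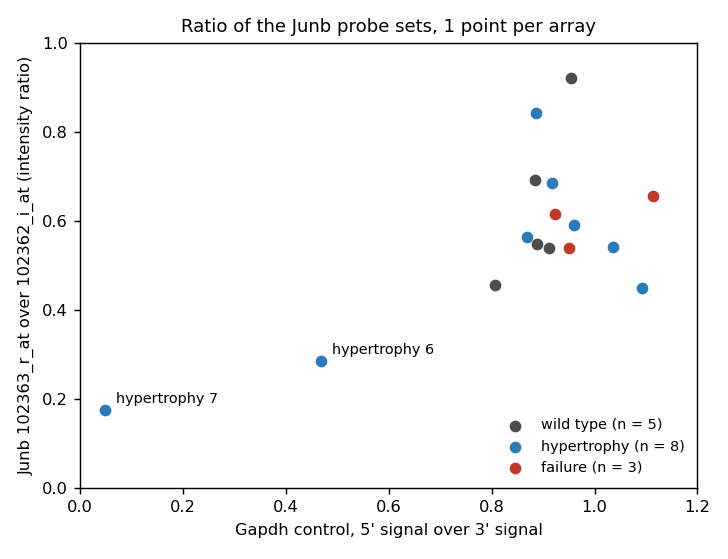
Ratio of the 2 Junb probe sets on each first type array (vertical axis, intensity ratio) against the ratio of the 5′ to the 3′ Gapdh control probe set (horizontal axis), with 1 point per array and colours for the 3 groups. Hypertrophy replicates 6 and 7 lie lowest on both axes, at Junb ratios of 0.285 and 0.175. In replicate 7 the 102363_r_at value was below the floor.

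Of the Fos family, Fosb was measured well above the array medians and Fos was not. Fosb, which like Fos pairs with Jun proteins, had intensities of 557 ± 35.5 (SD, n = 5) in wild type and 551 ± 59.4 (SD, n = 8) in hypertrophy. The failure arrays read 520, 500 and 486, inside the wild type range of 500 to 594 except for replicate 3. Its log2 change was -0.15 ± 0.11 in failure relative to wild type and -0.13 ± 0.11 relative to hypertrophy, with limma adjusted p of 0.702 and 0.733. Fos itself was near the floor. Its brighter probe set 160901_at read 39.3, 29.9, 30.7, 34.2 and 41.3 in wild type, 25.3 to 43.5 with a median of 35.2 in hypertrophy, and 47.2, 54.1 and 32.8 in failure. Failure replicates 1 and 2 were the brightest arrays and replicate 3 lay among the wild type values. In all, 12 of 16 arrays were below the floor, and the other Fos probe set, 161716_at, was below it on every array. Fitted without the filter on low values, 160901_at had a log2 change of 0.22 ± 0.07 (SE, after the floor) in failure relative to wild type, with an unadjusted p of 0.00653 and a limma adjusted p of 0.278. Most of its values were raised to the same floor, which narrows the spread, so this SE and these p-values may be too small.

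Ier3, a stress-induced protein with roles in cell survival, was the member whose failure arrays all lay above the rest. Its wild type arrays read 48.4, 65.6, 73.6, 112 and 85.9. The hypertrophy arrays read from 41.6 to 109 with a median of 75.3. The failure arrays read 198, 190 and 119, all above every wild type and hypertrophy array, although replicate 3 exceeded the brightest of them, a wild type array at 112, by little. The log2 change in failure relative to wild type was 1.15 ± 0.28 (SE; n = 3 and 5), 2.22-fold, with an unadjusted p of 0.000706 and a limma adjusted p of 0.117. Against hypertrophy it was 1.17 ± 0.26 (n = 3 and 8), 2.25-fold, with an unadjusted p of 0.000291 and a limma adjusted p of 0.147. Neither passed the threshold of 0.05 after adjustment over the 6980 probe sets tested. Because the high failure arrays also brought Ier3 through the filter, these p-values are not independent of that choice. Hypertrophy differed from wild type by less than the standard error. Both failure comparisons passed with array weights (limma adjusted p = 0.00148 and 0.00823) and without failure replicate 3 (0.0470 and 0.0495), and the comparison with wild type also without hypertrophy replicate 7 (0.0460). Without failure replicate 1 or 2 the adjusted p was 0.507 and 0.595 against wild type. Failure replicate 3 was the lowest failure array for Ier3. Over all 6980 probe sets 51 and 24 were called without it, and 1002 and 274 with array weights, against 10 and 0 in the fit reported. Without hypertrophy replicate 7, 28 were called against wild type.

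Egr1, which in muscle and vessel wall is known as an early target of stretch and of growth factors, was high in 2 of the 3 failure arrays. Its probe set 98579_at read 532 and 466 in failure replicates 1 and 2 and 90.4 in replicate 3. The wild type arrays read 159, 125, 219, 159 and 111, and hypertrophy ran from 119 to 251 with a median of 150. Replicates 1 and 2 of failure were thus above all other arrays and replicate 3 below all of them, so the failure group enclosed the other groups. The log2 change in failure was 0.91 ± 0.43 relative to wild type (limma adjusted p = 0.467) and 0.79 ± 0.40 relative to hypertrophy (limma adjusted p = 0.516). Without failure replicate 3 these were 1.73 and 1.61, with limma adjusted p of 0.0120 and 0.0336, and with array weights, which give less weight to arrays that vary more, they were 1.30 and 1.31 (limma adjusted p = 0.0105 and 0.0289). Without failure replicate 1 the change against wild type was 0.45, and without replicate 2 it was 0.54. Replicate 3 had the lowest Egr1 of all arrays, so leaving it out could only raise the change. Over all 6980 probe sets 51 and 24 were called without it, and 1002 and 274 with array weights, against 10 and 0 in the fit reported. The other Egr1 probe set, 161802_i_at, read at most 24.4 on any array, below the floor throughout.

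Other measures also set failure replicate 3 apart from replicates 1 and 2. Xist read 160, 129 and 14.3 in failure replicates 1, 2 and 3, and Eif2s3y read 4.94, 4.83 and 43.7. In a division made after the values were seen, the arrays were read separately by these genes. Among arrays with Xist above Eif2s3y, Egr1 read 159 and 125 in wild type, 154 to 251 in hypertrophy and 466 and 532 in failure. Among the others it read 111 to 219 in wild type, 119 to 146 in hypertrophy and 90.4 in failure. For Ier3 the same division gave 48.4 and 65.6 in wild type, 64.2 to 80.7 in hypertrophy and 190 and 198 in failure with Xist the brighter, and 73.6 to 112, 41.6 to 109 and 119 in the rest, where the 1 failure array is close to the brightest wild type array. These sets hold 1 or 2 failure arrays each and were not tested. In failure the division falls where Egr1 had already parted the arrays, and replicate 3 was also the lowest failure array for Ier3. The division therefore adds no separate evidence about either gene. The summed intensity of 11 fibroblast markers such as Col1a1 and Postn was 10119, 10488 and 5856 in failure replicates 1 to 3, against 5459 to 6697 in wild type and 4570 to 8962 in hypertrophy. That of 5 atrial markers such as Myl7 and Nppa was 4444, 4637 and 6414, against 1674 to 3730 and 1393 to 4934. By this sum all failure arrays were above wild type and only replicate 3 was above hypertrophy. The single atrial markers were split, with 3 positive and 2 negative log2 changes in failure against wild type. The sum follows its brightest genes, and whether it reflects atrial tissue was not tested. Red blood cell markers (2 genes) summed to 3892, 5142 and 10383, against 4457 to 6471 in wild type and 1935 to 7722 in hypertrophy. Of 11 fibroblast markers 0 were called in failure against wild type and 4 were higher at an unadjusted p of 0.05, and of 5 atrial markers these counts were 0 and 2. Over all probe sets of the first type, which read these markers, 0.143% were called and 7.15% were higher at that p. The 6 smooth muscle and pericyte markers summed to 1695, 1860 and 1985 in failure, above the wild type range of 1339 to 1659, against 938 to 1815 in hypertrophy. The 7 endothelial markers summed to 1843, 1701 and 2145 in failure, 1599 to 2040 in wild type and 1037 to 2319 in hypertrophy. With markers of the second array type included, 0 of 8 endothelial markers were called and 3 were higher at an unadjusted p of 0.05, and of 7 smooth muscle and pericyte markers these counts were 0 and 1. Over all probe sets 0.143% and 0.357% were called on the 2 array types, and 10.7% and 12.2% passed at that p in either direction. Of 10 ventricular cardiomyocyte markers 0 were called in failure against wild type and 2 were lower at that p. Their log2 changes ran from -1.13 to 0.13, with 5 positive and 5 negative. In 3 of the 10 all failure arrays were below wild type, beside 13.3% of first type probe sets not overlapping in either direction. The 10 macrophage and leukocyte markers summed to 2262, 2066 and 1959 in failure, 1827 to 2027 in wild type and 1904 to 2210 in hypertrophy. Of these 0 were called, 2 were higher and 1 was lower at that p. The part of sex or of these other tissues and cell types in the Egr1 and Ier3 values was not tested. In ventricular tissue a change in the number of cells of a type and a change in RNA per cell cannot be told apart.

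**Figure D2:**
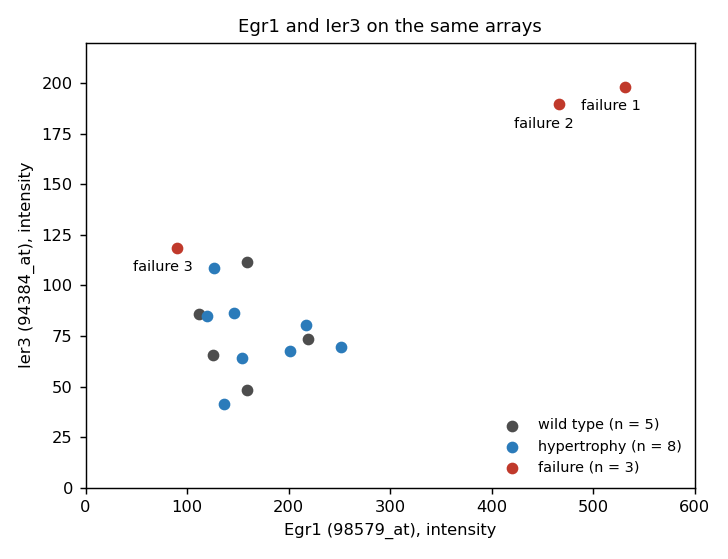
Intensity of Ier3 (vertical axis) against that of Egr1 (horizontal axis), linear scales, with 1 point for each of the 16 first type arrays and colours for the 3 groups. Failure replicates 1 and 2 stand alone at the top right, and replicate 3 has the lowest Egr1 value, 90.4, with an Ier3 value of 119.

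Atf3, a stress-induced factor that often represses its targets, was tested with 2 probe sets, and the groups overlapped in both. Probe set 161645_r_at had 250 ± 23.0 (SD, n = 5) in wild type, against 265 ± 35.7 (SD, n = 3) for failure and 262 ± 39.6 (SD, n = 8) for hypertrophy. Probe set 104156_r_at had 93.6 ± 9.82, 93.7 ± 12.3 and 84.2 ± 3.83 in the same order, and its log2 change in failure was -0.15 ± 0.13 against wild type and -0.14 ± 0.12 against hypertrophy (limma adjusted p = 0.752 and 0.743). A dim Atf3 probe set, 104155_f_at, read 34.9 to 51.0 in wild type, 30.8 to 51.5 in hypertrophy and 44.5 to 59.3 in failure and was not tested. Without the filter its log2 change (after the floor) was 0.25 ± 0.12 in failure relative to wild type and 0.27 ± 0.11 relative to hypertrophy, with unadjusted p of 0.0553 and 0.0291 and limma adjusted p of 0.536 and 0.506. On 6 of 16 arrays this probe set was raised to the floor, so its SE and p-values may be too small.

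Ier2, an early response protein of the cell nucleus, was dim. It read 48.3, 25.0, 48.8, 37.4 and 39.1 in wild type and 18.4 to 58.0 with a median of 31.9 in hypertrophy. The failure arrays read 61.4, 58.5 and 48.0, so replicates 1 and 2 were the highest of the 16 arrays and replicate 3 was within the wild type range. On 9 of 16 arrays Ier2 was below the floor. Without the filter its log2 change was 0.37 ± 0.15 (SE, after the floor) in failure relative to wild type, with an unadjusted p of 0.0232 and a limma adjusted p of 0.412. As many of its values were raised to the floor, this SE and these p-values may be too small. Myc read 1.37 to 14.0 over the 16 arrays, below the floor on all, and no change in Myc was detectable at this brightness.

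**Figure D3:**
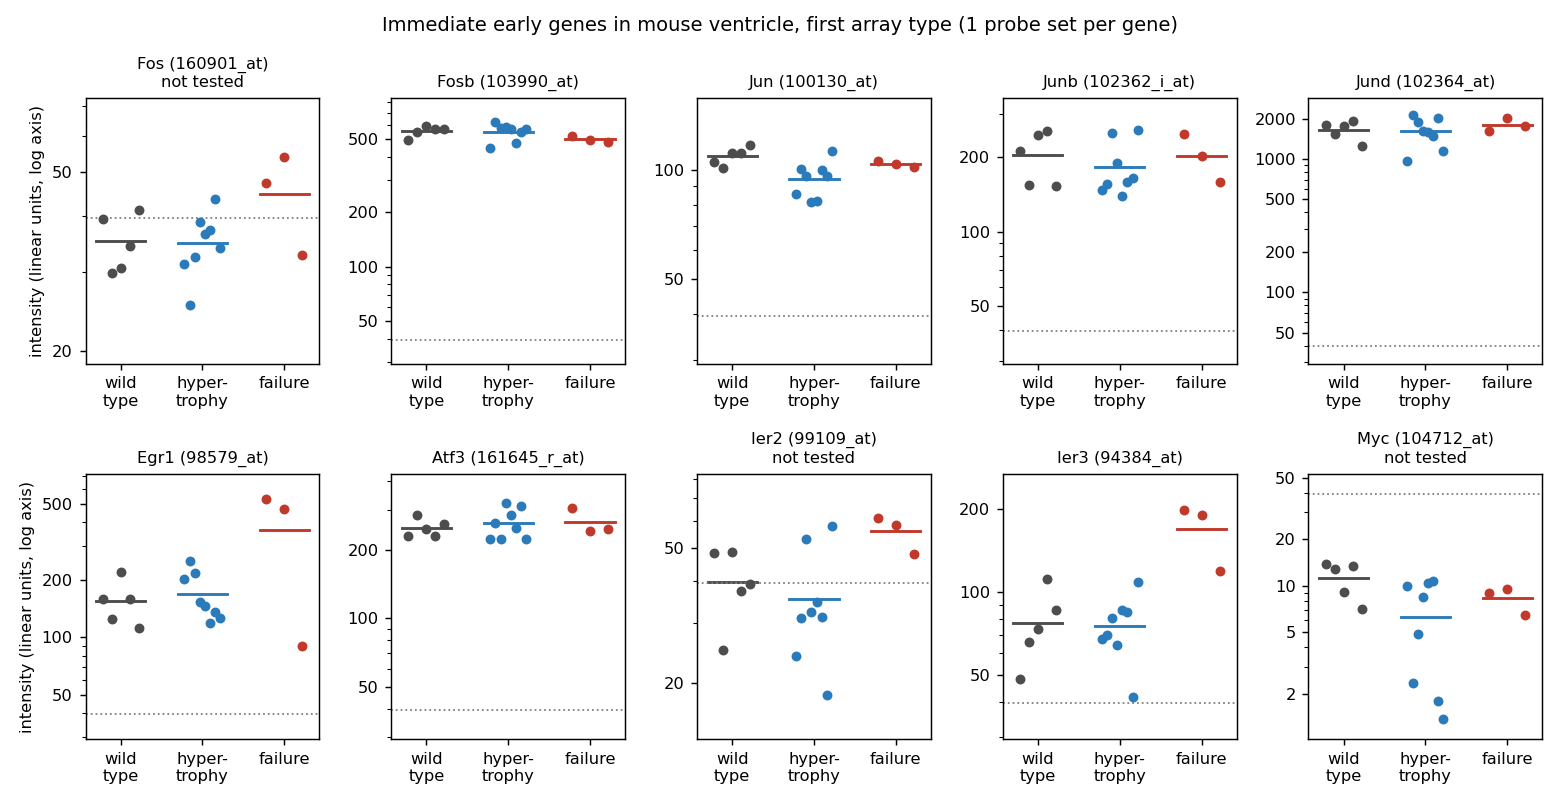
Intensity of each of the 10 genes (vertical axis, log scale) on the 16 first type arrays by group, 1 probe set per gene, with 1 point per array and a bar at the group mean; the dotted line is the floor of 39.5. The 3 failure arrays of Ier3 lie above all others, Egr1 has 2 high failure arrays and 1 low one, and all Myc points lie below the floor.

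The median log2 change of the 9 probe sets was -0.02 for hypertrophy and 0.0017 for failure, each against wild type, and 0.16 for failure against hypertrophy, beside -0.01, 0.04 and 0.05 over all probe sets tested. Both failure comparisons use the same 3 failure arrays, so their values are not independent of each other. The members ranged from -0.49 to 0.12, from -0.15 to 1.15 and from -0.14 to 1.17 in the 3 comparisons, and the upper ends in failure are Ier3. The intervals show how large a change these arrays leave possible. For Jun in failure against wild type the 95% interval of the log2 change ran from -0.31 to 0.17, for Fosb from -0.39 to 0.09 and for Jund (first type) from -0.33 to 0.61. For Junb by 102363_r_at it ran from -0.79 to 0.74 and for Egr1 from 0.0010 to 1.81, the widest intervals of the 9.

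**Figure D4:**
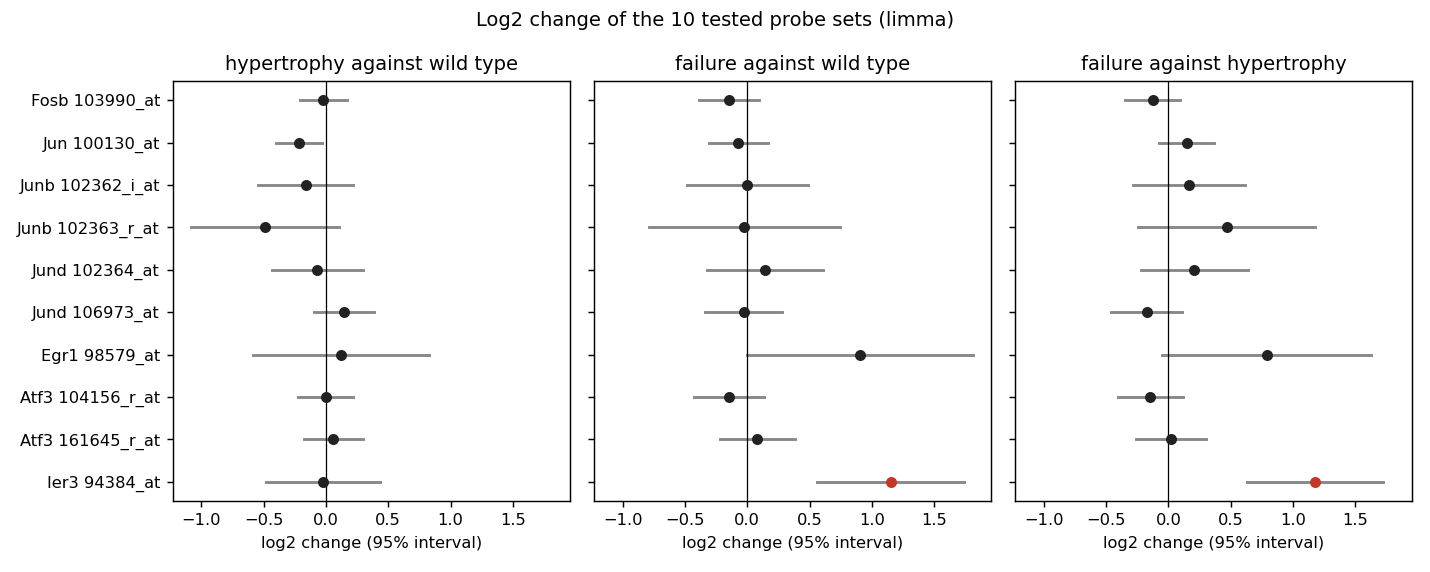
Log2 change (horizontal axis) of the 10 tested probe sets, 1 row each, in the 3 comparisons, with 95% intervals from limma. Red marks Ier3, whose failure arrays did not overlap the group compared, at 1.15 against wild type and 1.17 against hypertrophy; the other intervals include 0 except those of Jun in hypertrophy and Egr1 in failure against wild type.

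Whether members were high in the same hearts was asked over the 21 pairs of the 7 tested genes, with the brightest tested probe set of each on the first array type. Of these pairs 16 had a positive Pearson r over the 16 arrays. Each of the 7 genes also had a positive median r with all other probe sets tested, from 0.06 to 0.19. After Benjamini-Hochberg adjustment over the 21 pairs 0 passed in the permutation test, and 1 had an unadjusted p under 0.05. This pair was Egr1 and Ier3, at r = 0.517 (two-sided permutation p = 0.0401, adjusted 0.633) and Spearman's rho = 0.127 (permutation p = 0.640, adjusted 0.849). Without the 2 arrays whose Egr1 was farthest from its median, failure replicates 1 and 2, r was -0.303, so the relation rests on those arrays. Within the 8 hypertrophy arrays r was -0.119 (exact permutation p = 0.789), and with group means taken out it was 0.271 over the 16 arrays (permutation p = 0.369). In hypertrophy alone 0 of the 21 pairs had an unadjusted exact permutation p under 0.05.

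The probe sets most like Egr1 over the 16 arrays were ranked by Pearson's r of log2 intensity, as a description. They were Shroom3 (r = 0.879), which encodes an actin-binding protein, Ccn1 (0.868), a matrix protein and early response gene, Vip (0.856), a vasoactive neuropeptide, Per1 (0.821), a clock gene that also responds early, and Mycn (0.813), a relative of Myc. The median r of Egr1 with the other 6979 probe sets was 0.06. These points share their 3 groups and the same pair of high failure arrays. With group means taken out r was 0.859 for Shroom3, 0.846 for Ccn1, 0.810 for Vip, 0.765 for Per1 and 0.785 for Mycn. Without the 2 arrays farthest from the Egr1 median it was 0.847, 0.649, 0.522, 0.479 and 0.498 in the same order.

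Other immediate early and early response genes were taken from a list of 68, of which 62 were on the arrays and 50 were tested. This list, the gene lists below and the 10 members were chosen with earlier results of these data known. Their counts beside all probe sets are therefore no independent test. In failure against wild type 1 of 50 was called, beside 0.143% and 0.357% of all probe sets on the first and second array types. The gene called was Cebpd, a C/EBP transcription factor of the acute phase response, at 269 ± 107 (SD, n = 3) against 100.1 ± 8.52 (SD, n = 5), a log2 change of 1.34 ± 0.24 with a limma adjusted p of 0.0305. At an unadjusted p of 0.05, 14 of the 50 were higher and 1 was lower, beside 10.7% of all probe sets in either direction and 7.15% higher on the first type, which read 46 of the 50. Their median log2 change was 0.10, beside 0.04 over all probe sets of that type. Ccn2, the connective tissue growth factor gene, had the largest difference, 1697 ± 250 (SD, n = 3) against 484 ± 191 (SD, n = 5), a log2 change of 1.88 ± 0.39 (limma adjusted p = 0.0587). Cebpb, a relative of Cebpd, gave 1.50 ± 0.36 (limma adjusted p = 0.117). In failure against hypertrophy 0 of 50 were called, with 12 higher and 1 lower at an unadjusted p of 0.05, beside 10.1% of all probe sets in either direction and 7.28% higher, and a median of 0.20, beside 0.05. The smallest p-values there belonged to Cebpd (1.12 ± 0.22), Ccn2 (1.75 ± 0.36) and Hbegf (1.01 ± 0.27), an EGF family growth factor, with limma adjusted p of 0.128, 0.128 and 0.200. In hypertrophy against wild type 0 of 50 were called. At an unadjusted p of 0.05, 1 of 50 passed, where 4.47% and 9.77% of all probe sets did on the 2 array types. This gene was Tnfaip3, an inhibitor of NF-kappaB signalling, at 0.34 ± 0.13 (limma adjusted p = 0.960). Next came Fosl2, a Fos family member, at -0.24 ± 0.12, and Ppp1r15a, a stress-induced phosphatase subunit, at -0.35 ± 0.18, both with a limma adjusted p of 0.960.

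**Figure D5:**
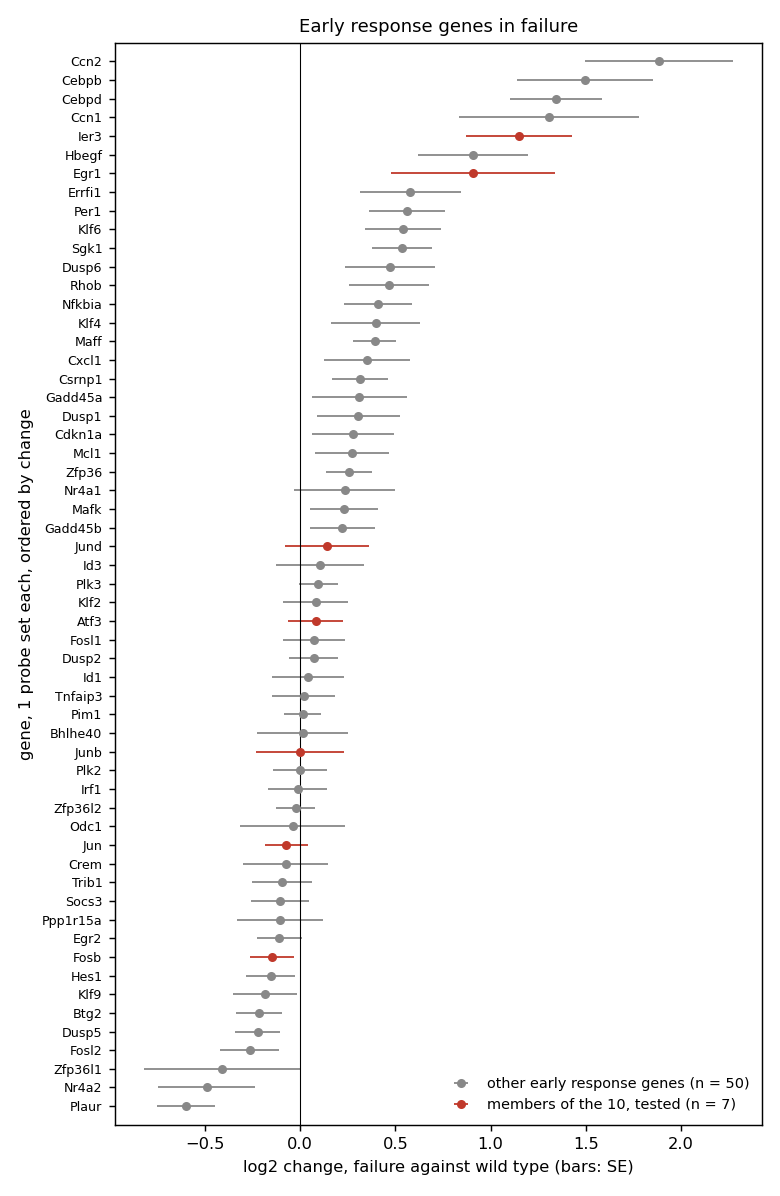
Log2 change in failure against wild type (horizontal axis, bars SE) of the 7 tested immediate early genes in red and the 50 other early response genes in grey, 1 probe set per gene in order of change. Ier3 at 1.15 and Egr1 at 0.91 lie among the highest genes with Ccn2, Cebpb and Cebpd, while Fosb, Jun, Junb, Jund and Atf3 lie between -0.15 and 0.14. The genes were chosen with earlier results of these data known.

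Partners of the members in dimers and their relatives were taken next. Of 28 AP-1 and MYC partner genes, 25 were on the arrays and 19 were tested, and 0 were called in any comparison. In failure against wild type 3 were higher and 1 lower at an unadjusted p of 0.05, beside 10.7% and 12.2% of all probe sets in either direction on the first and second array types, with a median log2 change of 0.13. Atf6, an endoplasmic reticulum stress factor read on the second array type, gave 0.46 ± 0.12 (limma adjusted p = 0.0982), Mycl, a MYC family member, gave -0.49 ± 0.15 (0.254) and Nfe2l1, a basic leucine zipper factor, gave 0.56 ± 0.21 (0.332). In failure against hypertrophy the counts were 3 and 1, beside 10.1% and 8.67%, led by Mycl at -0.45 ± 0.14, Atf6 at 0.33 ± 0.11 and Mycn at 0.57 ± 0.22. In hypertrophy against wild type 0 passed at that level, with Mga, Zbtb17 and Atf6 at -0.27 ± 0.15, -0.18 ± 0.11 and 0.13 ± 0.09.

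Of 41 upstream regulators of immediate early genes (kinases of the MAP kinase cascades, CREB, SRF, ETS and STAT factors), 33 were on the arrays and 23 were tested. Again 0 were called in any comparison. In failure against wild type 2 of 23 were higher at an unadjusted p of 0.05, where 10.7% and 12.2% of all probe sets passed on the 2 array types: Map2k4, a kinase that activates JNK, at 0.38 ± 0.17 (limma adjusted p = 0.420), and Elk1, an ETS partner of serum response factor, at 0.56 ± 0.26 (0.390). Creb1, which binds the cyclic AMP response element, followed at -0.27 ± 0.14 (0.518). In both other comparisons 0 of 23 passed at that level. The smallest p-values in failure against hypertrophy belonged to Creb1 (-0.26 ± 0.13), Mknk1 (0.23 ± 0.12) and Stat3 (0.17 ± 0.10). In hypertrophy against wild type they belonged to Elk1 (0.39 ± 0.20), Mapk11 (0.34 ± 0.20) and Mapk14 (-0.19 ± 0.13), of which Mapk11 and Mapk14 are p38 kinases. The median log2 change of the 23 genes was between -0.01 and 0.01 in all 3 comparisons.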

How the data were processed

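Total RNA of cardiac ventricle was measured on 2 Affymetrix array types, 16 arrays each. The values are the authors' deposited intensities; their scaling and summary are not stated there or in the labels. Symbols came from the platform annotation. Values were used unscaled, raised to the 20th percentile of the array type (39.5 and 27.5), and put on the log2 scale. The floor understates changes of dim probe sets and narrows their spread. Of 12488 and 12477 probe sets, 6980 and 7004 reached their array's median in at least 3 arrays and were tested. Each array type was fitted with limma 3.58.1 in R 4.3.3, 1 model over 3 groups, with Benjamini-Hochberg adjustment per comparison at 0.05; tests were two-sided. Pairs were tested by permutation (100000 resamples, exact within hypertrophy). The code was tested on simulated data. Precision is limited by the number of arrays: over all probe sets tested, log2 changes against wild type had a median standard error of 0.13 in hypertrophy and 0.17 in failure.

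The members and gene lists were chosen with earlier results of these data known. Named were all member probe sets, genes of the other lists that were called or had the 3 smallest p-values per comparison, the 5 genes most like Egr1 (Fos, the other gene planned for this, was not tested), and marker genes as examples. A gene of a list is represented by its brightest probe set.

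As alternatives, the arrays were rescaled by quantile or by median, the floor and the low-value filter were changed, and limma was run with array weights, with a robust variance trend, on the compared groups only, with a replicate block, without single arrays, without hypertrophy replicates 6 and 7, and with adjustment over both array types. The replicate numbers were not taken to pair the samples (correlations in the closing section). Figures were drawn with matplotlib 3.10.9.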

Additional observations from a re-analysis of the deposited data

How the results depend on the processing

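No member probe set was called in the fit reported, and 0 were called under quantile or median scaling, other floors, no filter, robust variance, only the groups compared, adjustment over both array types, or leaving out hypertrophy replicates 6 and 7. A stricter filter, the array median in at least 8 arrays, also gave 0, but it left 6 of the 9 first type probe sets and removed Ier3, Jun and Atf3 104156_r_at, so it says nothing about them. Array weights gave 2 calls (Ier3 and Egr1) for failure against wild type and 2 for failure against hypertrophy, with 1002 and 274 calls over all probe sets against 10 and 0 without weights. Leaving out 1 array at a time gave 0 to 2 member calls in both failure comparisons: 2 without failure replicate 3 in each (51 and 24 of 6980 probe sets called), and 1 (Ier3) without hypertrophy replicate 7 in failure against wild type (28 called). The Jund change in failure against hypertrophy on the second array type ran from -0.32 to 0.0088 when single arrays were left out, and turned sign without failure replicate 1; the cause was not tested. With the replicate number as a block 0 members were called and 3 probe sets in all in failure against wild type on the first type; the numbers were not taken to pair the samples, since same-numbered arrays of the first type deviated with correlations from -0.19 to -0.07 between failure and wild type, -0.16 to 0.12 between failure and hypertrophy, and -0.11 to 0.36 between hypertrophy and wild type. Of 30 changes of the 10 tested probe sets, 15 exceeded their standard error, and 413 of their 414 values under the alternatives kept their sign. The other 15 are given without direction in the report, and 10 of them changed sign under some alternative. Signal over background limits Fos, Ier2 and Myc, which lie near or below the floor.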
